A study of Mus musculus with 12 samples.

Results

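The proteasome is the protease that breaks down ubiquitin-tagged proteins in the cytosol and nucleus. Its barrel, the core particle, is built from rings of alpha subunits (Psma genes), which gate the entry, and rings of beta subunits (Psmb genes), some of which carry the cutting sites. A regulatory cap sits on the barrel. Its base holds a ring of ATPases (Psmc genes) that unfold the substrate, and its lid and remaining subunits (Psmd genes) bind ubiquitin chains and remove them. In cultured cells the subunit genes are known to be transcribed together, and the factors NFE2L1 and NFE2L2 are known to raise them under proteasome or oxidative stress.

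The genes described here are the protein-coding genes of the deposited table with a Psma, Psmb, Psmc or Psmd symbol and a number, without the immunoproteasome subunits Psmb8, Psmb9 and Psmb10. This gave 36 of 54392 gene rows. Of these, 16 belong to the core (8 Psma, 8 Psmb) and 20 to the cap (6 Psmc, 14 Psmd), and they lie on 16 chromosomes. They were measured by sequencing of ribosome-depleted total RNA in NIH-3T3, a spontaneously immortalised fibroblast line from mouse embryos, with 3 libraries in each of 4 groups. The WT group has the genotype Crls1WT. The groups KO1, KO2 and KO3 have the genotypes Crls1KO1, Crls1KO2 and Crls1KO3. Per the labels, these came from transfection with a pD1311-AD plasmid that encodes Cas9 and a guide RNA against Crls1, followed by sorting of individual GFP-positive cells, so that each line descends from 1 cell. The product of Crls1 synthesises cardiolipin, a lipid of the inner mitochondrial membrane, and the series title sets the work in mitochondrial protein synthesis. All groups grew in the same DMEM with foetal bovine serum, pyruvate and uridine. With 1 clone behind each KO group, a clone and its genotype cannot be told apart, and nothing in the labels says that the 3 libraries of a group came from separate cultures, so p-values measure only the spread between these libraries.

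Recovered depth was 32929242 to 42211807 reads per library. Crls1 stood at 740, 873 and 834 normalized counts (reads divided by the authors' size factor of the library) in WT, at 209 to 213 in KO1, 336 to 374 in KO2 and 363 to 408 in KO3. Of 9 fibroblast markers, 8 were expressed and Lum was at 0 in every library, while Col3a1, a fibrillar collagen gene, went from 133 to 156 in WT to 772 to 9159 in the clones. In the test given below Col3a1 was called higher in all clones and Col1a2 and Pdgfrb lower in all. Thy1, Fn1 and Vim were called higher in some clones, Col1a1 lower in KO3, and S100a4 lower in KO1 and higher in KO2. The 18 markers of epithelial, immune, endothelial and neural cells summed to 96.4 to 150 normalized counts in WT, 681 to 717 in KO1, 342 to 405 in KO2 and 393 to 498 in KO3, against 792246 to 917654 for the fibroblast markers. In total 8 of the 18 stayed under 10 in every library, and Snap25 was at 0 throughout. With all libraries Cdh1, Krt14 and Gfap were called higher in all clones, Tek in KO1 and KO3, and Ptprc, Pecam1 and Cdh5 in KO1. Only 9 of the 18 were tested, and none of these was called lower with all libraries. Without WT replicate 1 Cdh5 was called lower in KO3 (-1.93, adjusted p = 0.00807), and Tek was no longer called in KO1 (0.0845). The part of other cells in the results was not tested.

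One WT library, replicate 1, was unlike the others. The chi-square per degree of freedom over genes was 55.3 and 58.5 between it and WT replicates 2 and 3, against 18.1 between those and 4.73 to 26.3 between libraries of 1 clone. In medians over all genes the difference followed transcript length. Among genes with a mean of at least 1000 normalized counts, WT replicate 1 minus the mean of the other WT libraries had a median log2 value of -0.49 for transcripts under 1000 bases and 0.18 for those of at least 4000 bases. Core subunit transcripts are short, with a median of 1162.5 bases against 1710.5 for cap transcripts. WT replicate 1 was the lowest WT library for 13 of 14 expressed core genes (median difference -0.31) and for 12 of 20 cap genes (median -0.06). Single subunits lay off the median for genes of their length in both directions. Psmd5 (4397 bases) was at -0.72 where that median was 0.18, and Psmc4 (1440 bases) at 0.31 where it was -0.25. Calls of core genes that differ without this library are given both ways.

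**Figure D1:**
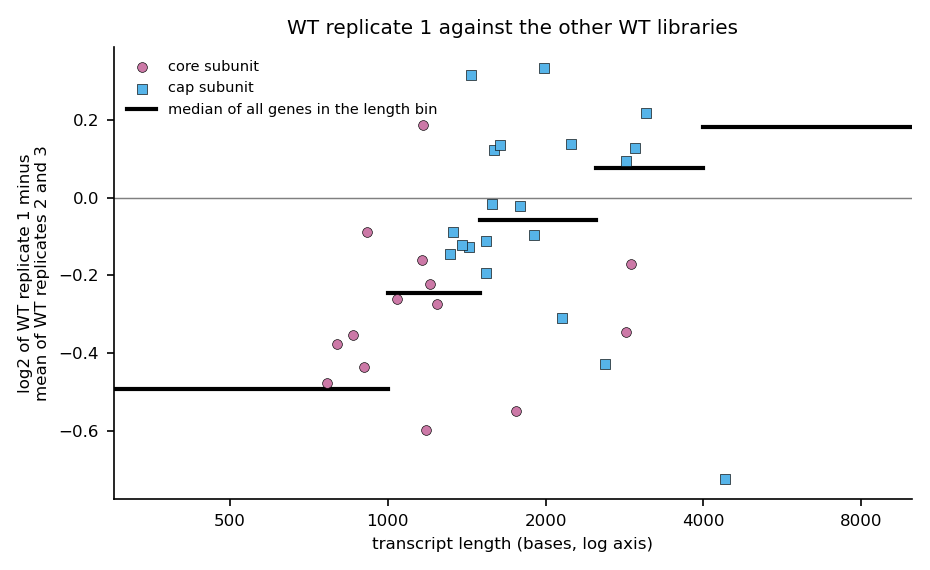
Each point is 1 expressed proteasome subunit gene, with the length of its annotated transcript on a log axis (bases) and the log2 value of WT replicate 1 minus the mean of WT replicates 2 and 3 on the vertical axis. Black lines are medians over all genes with a mean of at least 1000 normalized counts in 5 length bins and run from -0.49 for the shortest to 0.18 for the longest. Most core points (circles) lie below 0.

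The start regions of the subunit genes were read from RefSeq (GRCm38.p6), as 250 bases before and 50 after each annotated start, and 29 of the 36 genes had an entry, which gave 31 regions because Psma6 and Psmc2 have a second start. The antioxidant response element, to which NFE2L1 and NFE2L2 bind with small MAF partners, has the core letters TGACNNNGC, and CCAAT is the box bound by NF-Y. Both were searched on both strands, and no member region held a match to both. TGACNNNGC was found in 5 of 31 member regions (16.1%), those of Psmb5, Psmb6, Psmc6, Psmd9 and Psmd12, against 14.1% of the regions of all tested genes and 12.4% of all regions. CCAAT was found in 12 of 31 (38.7%), against 38.7% and 37.4%. The share with CCAAT was 7 of 13 core regions and 5 of 18 cap regions. Shown are regions of genes that the results below turn on. Psmb5, Psmc6 and Psmd12 hold TGACNNNGC and moved in different directions. Psma2 holds CCAAT and had the largest fall of the core in KO1 and KO3. Psmd1, with the largest fall of any subunit in KO2, and Psmd8, with the only rise shared by all clones, hold neither. Each is written 5′ to 3′ on the gene's own strand, with matches in capitals. A match is only a description of the letters.
Psmb5, chr14:54617946-54618245 (minus strand): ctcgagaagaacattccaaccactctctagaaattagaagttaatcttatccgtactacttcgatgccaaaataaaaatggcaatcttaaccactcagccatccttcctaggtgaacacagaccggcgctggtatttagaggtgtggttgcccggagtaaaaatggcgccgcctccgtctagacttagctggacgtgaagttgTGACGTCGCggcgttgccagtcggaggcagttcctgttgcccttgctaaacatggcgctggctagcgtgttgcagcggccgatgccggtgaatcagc
Psmc6, chr14:45329574-45329873 (plus strand): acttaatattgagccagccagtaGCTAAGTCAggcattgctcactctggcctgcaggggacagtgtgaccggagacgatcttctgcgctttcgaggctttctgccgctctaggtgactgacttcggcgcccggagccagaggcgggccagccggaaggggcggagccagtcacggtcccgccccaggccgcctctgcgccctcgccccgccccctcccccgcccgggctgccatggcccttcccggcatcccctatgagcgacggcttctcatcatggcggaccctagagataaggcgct
Psmd12, chr11:107479278-107479577 (plus strand): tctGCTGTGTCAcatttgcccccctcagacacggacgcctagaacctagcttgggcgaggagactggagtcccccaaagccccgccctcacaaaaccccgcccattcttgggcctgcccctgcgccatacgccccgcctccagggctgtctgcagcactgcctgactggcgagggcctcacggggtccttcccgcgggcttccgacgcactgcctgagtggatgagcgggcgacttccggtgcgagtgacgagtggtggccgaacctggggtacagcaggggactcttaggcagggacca
Psma2, chr13:14612992-14613291 (plus strand): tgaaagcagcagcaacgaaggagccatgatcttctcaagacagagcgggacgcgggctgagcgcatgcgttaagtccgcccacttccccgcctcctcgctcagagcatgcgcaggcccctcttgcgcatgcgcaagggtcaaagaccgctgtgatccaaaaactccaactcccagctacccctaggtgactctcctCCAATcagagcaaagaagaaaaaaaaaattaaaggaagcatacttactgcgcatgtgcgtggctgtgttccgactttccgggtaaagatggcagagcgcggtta
Psmd1, chr1:86064369-86064668 (plus strand): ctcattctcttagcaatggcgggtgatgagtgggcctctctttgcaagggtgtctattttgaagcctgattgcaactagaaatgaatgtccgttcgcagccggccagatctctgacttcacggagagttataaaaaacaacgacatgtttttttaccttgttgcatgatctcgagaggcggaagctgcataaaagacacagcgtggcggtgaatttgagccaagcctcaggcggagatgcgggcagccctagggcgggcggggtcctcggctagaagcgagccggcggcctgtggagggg
Psmd8, chr7:29180624-29180923 (minus strand): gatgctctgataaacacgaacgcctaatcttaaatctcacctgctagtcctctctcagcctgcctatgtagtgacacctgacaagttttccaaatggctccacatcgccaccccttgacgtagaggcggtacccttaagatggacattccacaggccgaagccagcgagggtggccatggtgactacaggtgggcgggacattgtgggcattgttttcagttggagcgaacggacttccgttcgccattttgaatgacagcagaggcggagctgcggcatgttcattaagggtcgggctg

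Counted from the annotated start, the match begins at position -47 in Psmb5, at position -227 in Psmc6 and at position -247 in Psmd12. The Psmc6 and Psmd12 matches lie on the opposite strand, so the capitals show the reverse complement of the motif. The CCAAT of Psma2 begins at position -54.

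Of the 36 genes, 34 reached 10 normalized counts in at least 3 libraries and were tested, 14 of the core and all 20 of the cap. Those left out are known from single tissues. Psma8, the alpha subunit of the testis, had at most 4 normalized counts in a library, and Psmb11, the beta subunit of the thymus, at most 2. To compare genes with each other, counts were divided by the length of 1 annotated transcript in kilobases. On this scale WT core genes ran from 1246 (Psmb5) to 6798 (Psma7), with a median of 4216 over the 14 tested. The tested cap genes ran from 371 (Psmd9) to 4739 (Psmc3), with a median of 2490.

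Psma7 led the order in WT at 6798 ± 252 per kilobase (SD, n = 3), above every library of the next gene, Psmb6 at 5803 ± 842. Psmb7, Psmb2, Psmb3, Psmc3 and Psmd2 followed at 4974 to 4718, and each overlapped the gene below it. Expressed at the bottom were the base chaperones, which help to assemble the cap and are not part of the finished particle. These are Psmd5 at 820 ± 215, Psmd10 at 566 ± 33.6 and Psmd9 at 371 ± 64.8 per kilobase. Only 7 neighbouring pairs in this order of 36 did not overlap in WT. Among the cutting subunits, Psmb6 and Psmb7 stood at 5803 and 4974 per kilobase and Psmb5 at 1246. The place of Psmb5 rests on how reads were shared with Gm3375, a pseudogene of which 70.0% of the 31-base stretches also occur in Psmb5 and which was listed at 53.3% of the Psmb5 count. The place of Psmd11, at 2392 per kilobase, rests on the transcript chosen and is 4189 with a shorter one. Psma7 stayed first in every clone and Psmb6 second, while Psmb7 went from rank 3 in WT to 8 in KO1 and Psmd1 from rank 13 to 17, 20 and 19 in KO1, KO2 and KO3.

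Summed over the subunits, the cap genes were at a lower level in all 9 clone libraries than in any of WT. In WT replicates 1, 2 and 3 the 20 cap genes summed to 56379, 55829 and 55172 normalized counts per kilobase. The sums were 45932, 45378 and 45632 in KO1, 43688, 44479 and 46604 in KO2, and 51314, 50655 and 51258 in KO3. Against the WT mean of 55793 ± 604 (SD, n = 3), the clone means differed by -18.2% in KO1, -19.5% in KO2 and -8.46% in KO3. KO3 thus stood between WT and the other clones without overlap with either. For the core the WT libraries themselves were split. WT replicate 1 had a sum of 49255 and replicates 2 and 3 had 59818 and 58977. KO1 libraries had 46222 to 48209, KO2 47755 to 49135 and KO3 51172 to 54036. KO1 and KO2 were below all WT libraries, narrowly so for WT replicate 1, whereas KO3 lay above WT replicate 1 and below the other WT libraries. Clone means differed from the WT mean by -15.7%, -13.7% and -6.08%, and from the mean of WT replicates 2 and 3 by -20.5%, -18.6% and -11.4%. The total of normalized counts over all genes was also lower in all 9 clone libraries than in any of WT. That total was 3.74e+07 to 3.87e+07 in WT and 3.53e+07 to 3.56e+07 in KO1. In KO2 it was 3.46e+07 to 3.53e+07 and in KO3 3.69e+07 to 3.71e+07. The sums were not tested. The ratio of the core sum to the cap sum was 0.874 in WT replicate 1, 1.07 in the other WT libraries and 1.01 to 1.12 in the clones. In bulk RNA, fewer cells of a kind and less RNA per cell cannot be told apart.

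**Figure D2:**
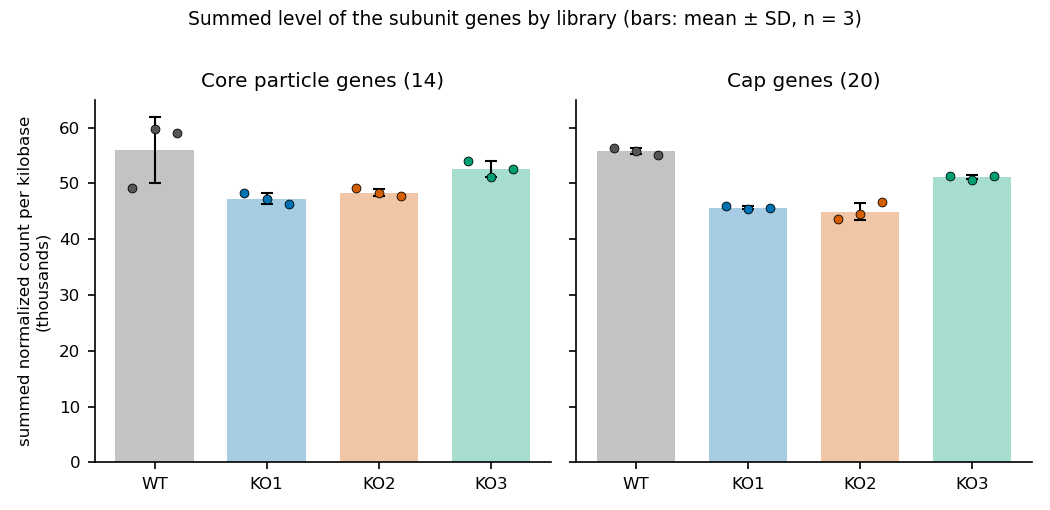
Summed normalized counts per kilobase, divided by 1000, of the tested core genes (left) and cap genes (right) in each group. Bars are means with SD over 3 libraries and points are libraries, replicates 1 to 3 from left to right. For the cap the 3 WT libraries (55172 to 56379) lie above all clone points, while for the core WT replicate 1 (49255) lies near the KO1 and KO2 points.

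Gene by gene, more subunits fell than rose in each clone (limma on log2 of the normalized count plus 1, Benjamini-Hochberg adjusted p under 0.05 over 15073 genes). In KO1, 18 of 34 tested subunits were lower and 1 was higher, while over all genes 25.4% were called lower and 26.9% higher. In KO2, 21 were lower and 2 higher, beside 30.5% lower and 29.9% higher over all genes. In KO3, 12 were lower and 3 higher, beside 27.3% and 26.8%. Among the 6794 genes with a mean of at least 1000 normalized counts, which is the level of most subunits, 35%, 40.7% and 32.3% were lower in KO1, KO2 and KO3. The count for KO3 (12 of 34) is therefore close to that background. The 3 comparisons share the WT libraries, so their counts are not independent of one another. Split by part, the median difference was -0.29, -0.22 and -0.05 for the core and -0.25, -0.34 and -0.12 for the cap in KO1, KO2 and KO3, beside medians of 0.02, 0.0040 and 0.0032 over all genes tested.

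The core counts depended on WT replicate 1. With all libraries 7, 6 and 4 of 14 core genes were lower in KO1, KO2 and KO3. Beside these, 35%, 40.7% and 32.3% of genes with a mean of at least 1000 normalized counts were lower. The core counts of KO2 and KO3 with all libraries are near that share. Without WT replicate 1, 12, 11 and 8 core genes were lower, with 25.5%, 30.6% and 27.9% of all genes lower in that fit. The core medians without it were -0.39, -0.34 and -0.16. They were -0.24, -0.16 and 0.0022 without WT replicate 2 and -0.21, -0.14 and -0.0053 without WT replicate 3. The KO3 median was thus near 0 without either of these. For the cap 11, 15 and 8 of 20 were lower with all libraries and 13, 14 and 8 without WT replicate 1. With quantile normalization 4 and 3 core genes were lower in KO1 and KO2, beside 4294 and 4556 of 15073 genes lower in that fit. As shares of 14 these counts are near or below those over all genes.

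**Figure D3:**
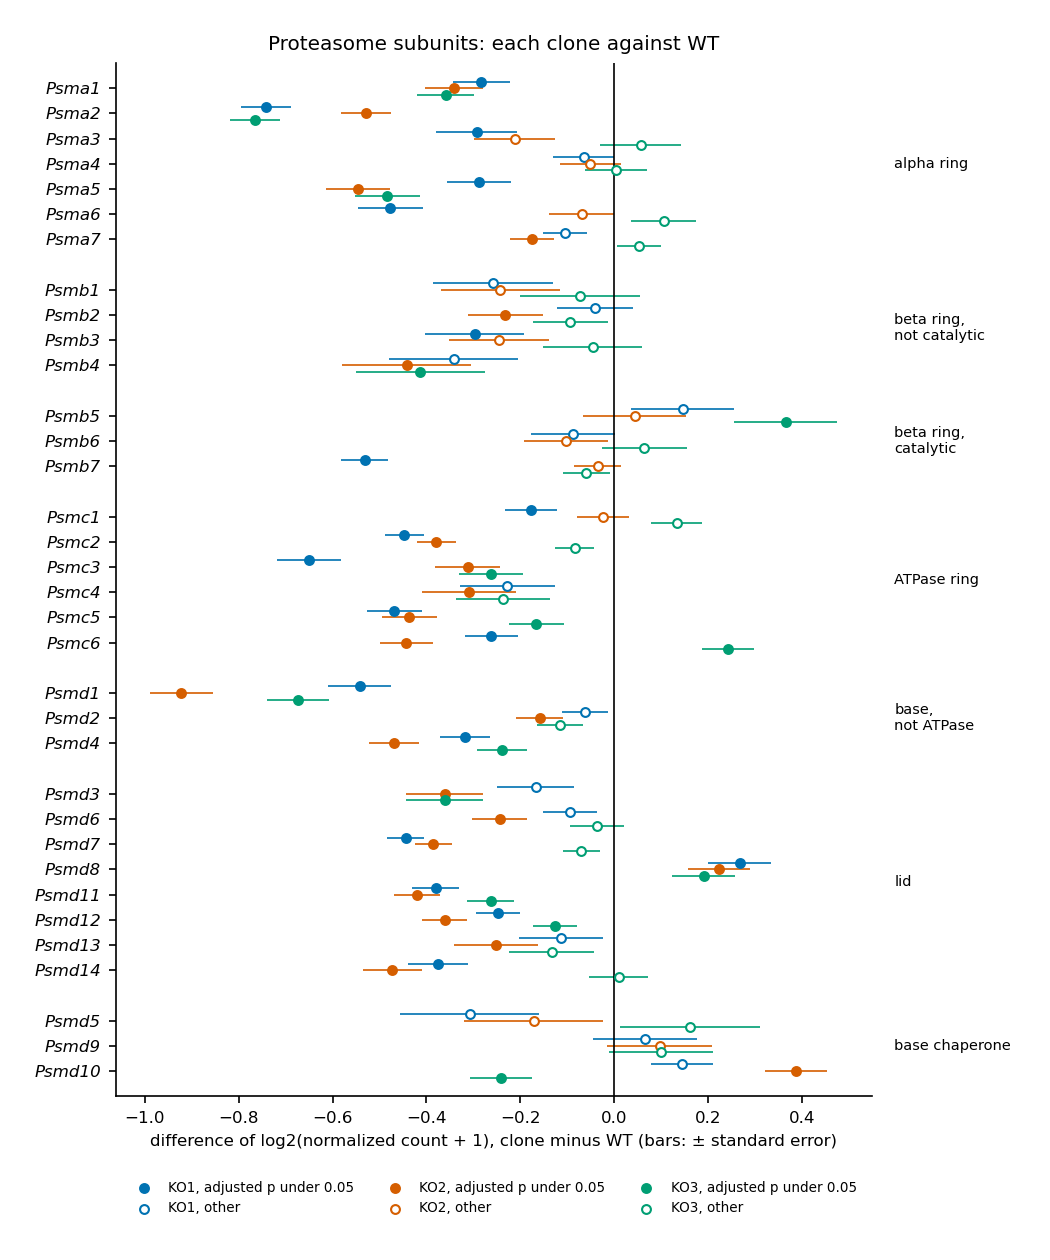
Differences of log2(normalized count + 1) between each clone and WT for the 34 tested subunits, grouped by their place in the proteasome, with standard errors from the limma fit. Filled points have an adjusted p under 0.05. Most filled points lie left of 0, from -0.92 for Psmd1 in KO2, and the filled points on the right are Psmd8 in all clones, Psmd10 in KO2, and Psmb5 and Psmc6 in KO3.

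The alpha ring was led in KO1 and KO3 by Psma2, which fell in all 3 clones. Psma2 (chromosome 13, 14613240 to 14674236, plus strand, GRCm38) stood at 5169, 5874 and 5768 normalized counts in WT, 3379, 3356 and 3304 in KO1, 3918, 3888 and 3822 in KO2 and 3422, 3284 and 3173 in KO3. No clone library reached a WT library, and KO2 lay above the others. The log2 differences were -0.74 ± 0.0535 (SE), -0.53 ± 0.0535 and -0.77 ± 0.0535, with adjusted p of 2.21e-07, 3.24e-06 and 1.29e-07. KO2 was higher than KO1 (adjusted p = 0.00654) and than KO3 (0.00261). The 40 nearest tested genes on chromosome 13 (20 on each side) had a median difference of -0.39 in KO2, and after subtracting it Psma2 was at -0.14 with an adjusted p of 0.113. The gene body of Psma2 shares 8943 bases with AW209491 on the same strand, a gene at 457 normalized counts on average.

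Psma5 and Psma1, both constitutive alpha subunits, also fell in all clones. Psma5 stood at 4098, 4976 and 4935 in WT, 3895, 3834 and 3700 in KO1, 3226, 3136 and 3193 in KO2 and 3478, 3239 and 3270 in KO3, so that the lowest WT library lay only just above KO1. Its differences were -0.29, -0.55 and -0.48 (SE 0.0686, adjusted p = 0.0037, 2.15e-05 and 7.33e-05). The neighbours of Psma5 on chromosome 3 had medians of -0.26, -0.35 and -0.37, and with these subtracted the differences were -0.02, -0.19 and -0.11 and none was called. Psma1 stood at 3851, 4506 and 4484 in WT and at 3210 to 3569 over all clone libraries. All clone values were below WT, and the differences of -0.28, -0.34 and -0.36 (SE 0.0609, adjusted p = 0.00192, 0.000376 and 0.000304) stayed called after the neighbours were subtracted.

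Psma6 separated the clones. It stood at 4303, 5271 and 5034 in WT, 3599, 3522 and 3341 in KO1, 4503, 4635 and 4744 in KO2 and 5456, 5088 and 5132 in KO3. KO1 lay below all WT libraries, at -0.48 ± 0.0692 (adjusted p = 9.92e-05), and the differences of KO2 and KO3 from KO1 were called (adjusted p = 0.000452 and 2.82e-05). With the neighbours subtracted neither difference between clones was called (0.20 and 0.21, adjusted p = 0.0707 and 0.0516), and without WT replicate 1 KO2 was also called below WT (-0.16, 0.0172). Psma3 was lower in KO1 (-0.29, adjusted p = 0.0134), a call that was lost with quantile normalization, without WT replicate 2 or 3, and with the neighbours subtracted, while without WT replicate 1 it was called in KO1 and KO2 (-0.41 and -0.33). Gm13835, a processed pseudogene all of whose 31-base stretches occur in Psma3, was listed at 43.1% of the Psma3 count. With its counts added Psma3 was at -0.33 in KO1 and -0.20 in KO2 (adjusted p = 0.00348 and 0.0457). Psma7, the most abundant subunit, was called lower in KO2 (-0.17, adjusted p = 0.0067), and without WT replicate 1 in KO1 too (-0.13, 0.025). Psma4 did not pass the test in any clone, with differences of -0.06, -0.05 and 0.0039.

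Of the beta subunits without a cutting site, Psmb4 carried the largest differences and the widest WT spread on the log2 scale. It stood at 3341, 5003 and 5113 normalized counts in WT, 3497, 3454 and 3476 in KO1, 3621, 3361 and 2801 in KO2 and 3394, 3213 and 3319 in KO3. WT replicate 1 fell within the range of the clones, and the other WT libraries lay far above it. Psmb4 was lower in KO2 and KO3 (-0.44 and -0.41, SE 0.137, adjusted p = 0.0145 and 0.0228) and at -0.34 in KO1 (0.0543). Without WT replicate 1 all 3 were called, at -0.54, -0.64 and -0.61, and without WT replicate 2 or 3 neither KO2 nor KO3 was.

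Psmb3 was called lower in KO1. It stood at 2895, 3940 and 4125 in WT, 2904, 2944 and 2965 in KO1, 3179, 3040 and 2923 in KO2 and 3669, 3274 and 3564 in KO3. WT replicate 1 was below every clone library and the other WT libraries were above all of them. The KO1 difference was -0.30 ± 0.106 (adjusted p = 0.0327), and without WT replicate 1 Psmb3 was called in all clones (-0.46, -0.40 and -0.20), while the KO1 call was lost in 7 of 18 alternatives, among them those without WT replicate 2 or 3. Psmb2 was called lower in KO2 (-0.23, adjusted p = 0.0251), a call lost in 6 of 18 alternatives, and without WT replicate 1 it was lower in all clones (-0.16, -0.35 and -0.21). Psmb1 did not pass the test in any clone with all libraries (-0.26, -0.24 and -0.07) and was called lower in each without WT replicate 1 (-0.44, -0.43 and -0.26).

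The 3 cutting subunits did not move together. Psmb7, which carries the trypsin-like activity, fell in KO1. It stood at 5350, 6064 and 5897 in WT, 4032, 3974 and 3950 in KO1, 5713, 5621 and 5536 in KO2 and 5678, 5410 and 5505 in KO3. KO1 was apart from all other libraries, at -0.53 ± 0.0503 against WT (adjusted p = 2.63e-06), and KO2 and KO3 were both higher than KO1 (adjusted p = 7.96e-06 and 1.18e-05). Without WT replicate 1 KO3 was also called lower than WT (-0.11, 0.0288). With the neighbours subtracted the KO2 and KO1 difference went from 0.50 to 0.27, and that of KO3 and KO1 was 0.16 and not called (0.0537). Nek6, which overlaps Psmb7 by 6571 bases on the other strand, was listed at 2157 normalized counts on average, and the sources used here do not say whether counting used strand.

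Psmb5, which carries the chymotrypsin-like activity, was the only core gene to rise in a clone. It stood at 907, 1256 and 1198 in WT, 1256, 1258 and 1170 in KO1, 1124, 1080 and 1230 in KO2 and 1419, 1325 and 1552 in KO3. KO3 lay above all other libraries, at 0.37 ± 0.11 (adjusted p = 0.0136), and also differed from KO2 (0.0263) but not from KO1 at the threshold (0.129). Without WT replicate 1 the rise in KO3 was 0.22 (adjusted p = 0.0296). The call was lost without KO3 replicate 3, in a fit of WT and KO3 alone, and with the neighbours subtracted (0.20, adjusted p = 0.124). Gm3375 rose in KO3 as well, at 774, 715 and 826 against 394, 602 and 665 in WT (0.51, adjusted p = 0.0245), and the sum of both was at 0.41 (0.0097). Psmb6, the caspase-like subunit, did not pass the test with all libraries (-0.09, -0.10 and 0.06) and was called lower in KO1 and KO2 without WT replicate 1 (-0.21 and -0.23, adjusted p = 0.00679 and 0.00364).

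**Figure D4:**
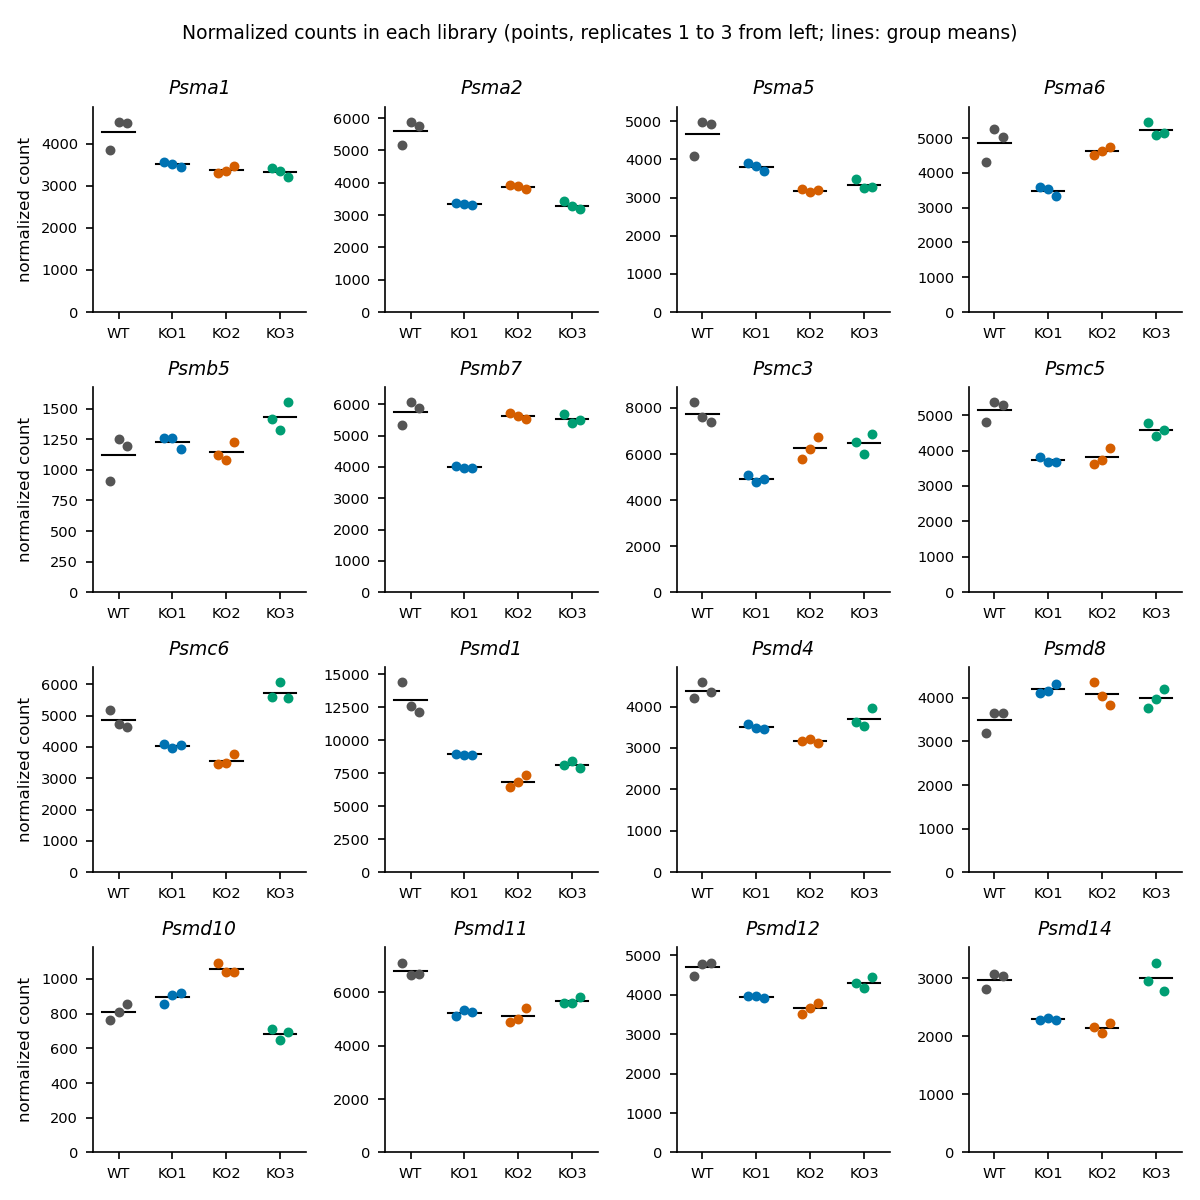
Normalized counts of 16 subunits in each of the 12 libraries, from 0, with group means as lines and replicates 1 to 3 from left to right. Psma2, Psmd1, Psmd4, Psmd11 and Psmd12 are below WT in every clone library, Psmd8 is above WT in every clone library, Psmb7 is low in KO1 only, and Psmc6 and Psmd10 lie on opposite sides of WT in KO2 and KO3.

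In the ATPase ring of the cap base, 5 of 6 genes fell in KO1, 5 in KO2 and 2 in KO3, where 1 rose, beside 35%, 40.7% and 32.3% of all genes with a mean of at least 1000 normalized counts called lower. The count for KO3 is near that share. The medians of the ring were -0.35, -0.35 and -0.12. Psmc3 stood at 8246, 7608 and 7402 normalized counts in WT, 5096, 4792 and 4920 in KO1, 5781, 6217 and 6753 in KO2 and 6532, 5997 and 6875 in KO3. It fell in each clone without overlap, most in KO1, at -0.65, -0.31 and -0.26 (SE 0.0689, adjusted p = 6.98e-06, 0.00179 and 0.00641). Both other clones were above KO1 (0.34 and 0.39, adjusted p = 0.00167 and 0.00064), differences that were not called with the neighbours subtracted (0.13 and 0.06, 0.194 and 0.581). The antisense neighbour Slc39a13 overlaps Psmc3 by 4579 bases and was listed at 2402 on average.

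Psmc5 and Psmc2 were lower in KO1 and KO2, and Psmc5 less so in KO3. Psmc5 stood at 4813, 5363 and 5285 in WT, 3805, 3683 and 3678 in KO1, 3618, 3746 and 4062 in KO2 and 4779, 4412 and 4587 in KO3. Its differences were -0.47, -0.44 and -0.17 (SE 0.0584, adjusted p = 2.84e-05, 3.67e-05 and 0.0301), and that of KO3 was lost in 8 of 18 alternatives, among them quantile normalization and the fit without WT replicate 2. Psmc2 stood at 7468, 7628 and 7541 in WT, 5531, 5599 and 5472 in KO1, 5655, 5712 and 6049 in KO2 and 7125, 7253 and 6984 in KO3. WT libraries of Psmc2 were close together, and KO1 and KO2 lay well below, at -0.45 and -0.38 (SE 0.0417, adjusted p = 2.29e-06 and 6.77e-06), with KO3 between (-0.08, adjusted p = 0.11). Psmc4 was lower in KO2 (-0.31, adjusted p = 0.0183), which was no longer called without WT replicate 1 (-0.20, 0.0639). Psmc1 was lower in KO1 (-0.18, adjusted p = 0.0171), a call lost with quantile normalization and without KO1 replicate 3. In KO3 it was at 0.13 and not called (0.0584). Without WT replicate 1 Psmc1 was called lower in KO1 (-0.14, 0.0435) and higher in KO3 (0.17, 0.0128). With the neighbours subtracted Psmc1 (-0.29, -0.45 and -0.32) and Psmc4 (-0.39, -0.53 and -0.28) were called lower in all clones.

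Psmc6 went in opposite directions. This ATPase gene (chromosome 14, 45329788 to 45349705, plus strand) stood at 5164, 4748 and 4636 in WT, 4080, 3982 and 4061 in KO1, 3445, 3493 and 3763 in KO2 and 5603, 6059 and 5549 in KO3. KO1 and KO2 lay below all WT libraries and KO3 above them, at -0.26, -0.44 and 0.24 (SE 0.0563, adjusted p = 0.00192, 2.4e-05 and 0.0029). KO3 exceeded KO2 by 0.69 and KO1 by 0.50 on the log2 scale (adjusted p = 7.41e-07 and 1.76e-05). The neighbours on chromosome 14 had medians of 0.35, 0.10 and 0.29. With these subtracted Psmc6 was at -0.61, -0.54 and -0.05, and the KO3 difference was not called (0.484).

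Among the base subunits that are not ATPases, Psmd1 had the largest difference of all subunits, in KO2. In KO1 and KO3 Psma2 fell further (-0.74 and -0.77), as did Psmc3 in KO1 (-0.65). Psmd1, a scaffold of the base (chromosome 1, 86064387 to 86139151, plus strand), stood at 14383, 12582 and 12142 normalized counts in WT, 8975, 8882 and 8922 in KO1, 6434, 6833 and 7336 in KO2 and 8124, 8466 and 7868 in KO3. All clone libraries were far below WT, and KO2 was the lowest. The means differed from WT by -31.5%, -47.3% and -37.5%, and the log2 differences were -0.54, -0.92 and -0.67 (SE 0.0668, adjusted p = 2.57e-05, 1.74e-07 and 3.23e-06). KO2 was below KO1 (adjusted p = 0.000589) and KO3 (0.00743). Its neighbours went the other way, with medians of 0.62, 0.18 and 0.16, and with these subtracted the differences were -1.16, -1.10 and -0.83 and KO2 no longer lay below KO1 (0.05, adjusted p = 0.652).

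Psmd4, a ubiquitin receptor of the cap, stood at 4197, 4581 and 4348 in WT, 3583, 3472 and 3465 in KO1, 3158, 3211 and 3108 in KO2 and 3620, 3536 and 3969 in KO3. It fell in all clones without overlap, at -0.32, -0.47 and -0.24 (SE 0.0532, adjusted p = 0.000303, 8.78e-06 and 0.00217). With the neighbours subtracted the KO3 call was lost (-0.13, 0.0714). Psmd2, the other scaffold, passed the test in KO2, at -0.16 (adjusted p = 0.0146), a call lost in 3 of 18 alternatives, among them the one without KO2 replicate 2. With the neighbours subtracted Psmd2 was called lower in all clones (-0.32, -0.31 and -0.39, adjusted p = 0.00342, 0.0035 and 0.000813).

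In the lid, 7 of 8 genes fell in KO2 and the remaining gene, Psmd8, rose, while 4 fell in KO1 and 3 in KO3. Among all genes with a mean of at least 1000 normalized counts, 40.7%, 35% and 32.3% were lower in KO2, KO1 and KO3, and the KO3 count of the lid is near that share. Psmd11 stood at 7110, 6644 and 6679 in WT, 5110, 5329 and 5258 in KO1, 4870, 5015 and 5396 in KO2 and 5608, 5604 and 5809 in KO3. This lid subunit, known to promote assembly of cap and core, was below WT in every clone library, at -0.38, -0.42 and -0.26 (SE 0.0498, adjusted p = 4.28e-05, 1.32e-05 and 0.000702). Psmd12 stood at 4489, 4786 and 4818 in WT, 3980, 3962 and 3928 in KO1, 3519, 3668 and 3782 in KO2 and 4291, 4177 and 4444 in KO3. Its order was WT, KO3, KO1 and KO2 without overlap, at -0.25, -0.36 and -0.13 (SE 0.0473, adjusted p = 0.000839, 3.06e-05 and 0.0395), and the KO3 call was lost in 9 of 18 alternatives.

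Psmd14, the deubiquitinase that removes ubiquitin chains before entry, stood at 2824, 3071 and 3035 in WT, 2276, 2320 and 2282 in KO1, 2155, 2051 and 2228 in KO2 and 2957, 3272 and 2776 in KO3. KO1 and KO2 were below WT at -0.38 and -0.47 (SE 0.0631, adjusted p = 0.00032 and 3.64e-05), and KO3 overlapped WT (0.01, adjusted p = 0.907). The KO1 call went with a chromosome 2 neighbourhood at -0.35 and was lost after subtraction (-0.02, 0.863). Its partner in the lid, Psmd7, was also lower in KO1 and KO2 (-0.44 and -0.39, adjusted p = 1.33e-06 and 3.31e-06) and at -0.07 in KO3. Psmd3 stood at 4652, 5623 and 5919 in WT, 4877, 4628 and 4843 in KO1, 4200, 4345 and 4007 in KO2 and 4065, 3967 and 4529 in KO3. It fell in KO2 and KO3 by the same size (both -0.36, SE 0.0823, adjusted p = 0.00224 and 0.00258) and was at -0.17 in KO1 (0.108), which was called without WT replicate 1 (-0.27, 0.0025).

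Psmd8 was the only subunit that rose in all clones. This lid subunit (chromosome 7, 29174188 to 29180701, minus strand) stood at 3188, 3649 and 3641 in WT, 4114, 4164 and 4313 in KO1, 4351, 4034 and 3842 in KO2 and 3775, 3967 and 4209 in KO3. Every clone library was above every WT library. The differences were 0.27, 0.22 and 0.19 (SE 0.0669, adjusted p = 0.00504, 0.0118 and 0.029). Without WT replicate 1 they were 0.20, 0.16 and 0.13, the last not called (0.0896), and with the neighbours subtracted those of KO1 and KO2 were not called (0.07 and 0.01). Psmd6 and Psmd13 were lower in KO2 only (-0.24 and -0.25, adjusted p = 0.00301 and 0.029), and the Psmd13 call was lost without WT replicate 1 (-0.14, 0.0949). With the neighbours subtracted Psmd6 was called lower in all clones (-0.23, -0.32 and -0.18) and Psmd13 in KO1 and KO2 (-0.43 and -0.58).

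Of the 3 base chaperones, Psmd10 alone passed the test with all libraries. Psmd10, also called gankyrin, stood at 762, 808 and 858 in WT, 855, 909 and 920 in KO1, 1094, 1040 and 1041 in KO2 and 712, 647 and 695 in KO3. KO2 lay above and KO3 below all WT libraries, at 0.39 and -0.24 (SE 0.0665, adjusted p = 0.000275 and 0.00858), with KO1 at 0.15 (0.0858), and KO3 was lower than KO2 by 0.63 on the log2 scale (adjusted p = 6.62e-06). Psmd10 lies on the X chromosome (140948429 to 140956728, minus strand), where its neighbours had a median of -0.57 in KO3. With these subtracted Psmd10 in KO3 turned to 0.33 and was called higher (adjusted p = 0.00807), and its difference from KO2 was -0.10 and not called (0.382). Psmd9 did not pass the test in any clone (0.07, 0.10 and 0.10), nor did Psmd5 (-0.31, -0.17 and 0.16). WT replicate 1 of Psmd5 stood at 2514 against 4188 and 4111 in the other WT libraries, and without it Psmd5 was lower in KO1 and KO2 (-0.55 and -0.41, adjusted p = 4.78e-06 and 3.65e-05).

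The clones also differed from one another. KO2 and KO1 differed in 10 of 34 subunits, 6 higher and 4 lower in KO2, where 20.5% and 23.9% of all genes were higher and lower. KO3 was higher than KO1 in 12 subunits and lower in 2, with 20.3% and 23.4% over all genes. KO3 was higher than KO2 in 15 and lower in 2, with 26.1% and 27% over all genes. In either direction the shares over all genes were 44.4%, 43.6% and 53.1% for the 3 comparisons of clones. Among genes with a mean of at least 1000 normalized counts, 27.5% were higher in KO3 than in KO1 and 35.9% higher than in KO2. The ATPase and lid genes Psmc1, Psmc2, Psmc5, Psmc6, Psmd7 and Psmd14 were called higher in KO3 than in KO1 and than in KO2. So were the alpha ring genes Psma3, Psma6 and Psma7, while Psmd10 was called lower in both comparisons, which share the KO3 libraries. Against KO2 the call of Psmc1 was lost in 8, that of Psma6 in 12 and that of Psma3 in 5 of 17 alternatives. Against KO1 that of Psma7 was lost in 5 of 17. The medians were 0.10 and 0.18 for the cap and 0.15 and 0.15 for the core in KO3 against KO1 and KO2. Between KO2 and KO1 they were -0.06 for the cap and -0.00085 for the core. With the neighbours subtracted 7 subunits differed between KO3 and KO1, all higher. In that fit 2761 of 15073 genes were higher and 3139 lower, and 7 of 34 is near that share of higher genes. The calls of Psma3, Psma5, Psma6, Psmb7, Psmc1, Psmc3, Psmd5, Psmd10 and Psmd14 were lost, and those of Psmb3 and Psmd1 were new.

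The subunits of the cap that the symbol rule leaves out went in opposite directions. Adrm1, a ubiquitin receptor, stood at 3448, 4301 and 4290 in WT and was called lower in all clones (-0.21, -0.45 and -0.25, adjusted p = 0.0414, 0.000324 and 0.0168). The KO1 call was lost in 9 and the KO3 call in 5 of 18 alternatives, both without WT replicate 2 or 3. Sem1, a small lid subunit, rose in KO2 and KO3 (0.35 and 0.43, adjusted p = 0.0215 and 0.00898), with WT libraries at 1825, 2592 and 2292. Without WT replicate 1 the KO2 difference was 0.22 and not called (0.074). Of the 5 assembly chaperones of the core that were analysed (Psmg1, Psmg2, Psmg3, Psmg4 and Pomp), only Psmg2 passed the test with all libraries, lower in KO2 (-0.32, adjusted p = 0.000456) and higher in KO3 (0.29, 0.000952). It stood at 1006, 1016 and 1017 in WT, 817, 800 and 821 in KO2 and 1264, 1231 and 1232 in KO3. Without WT replicate 1, Psmg1 was called lower in KO1 (-0.38, adjusted p = 0.000599).

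The subunits that replace the cutting subunits in the immunoproteasome were weakly expressed. Psmb8 had at most 2 normalized counts in a library. Psmb10 was called higher than WT in KO2 (0.51), a call lost in 4 of 18 alternatives, among them the one without WT replicate 1. Its differences of 0.05 in KO1 and -0.05 in KO3 were not called. Psmb9 stood at 59, 56 and 59 in WT, 94, 123 and 143 in KO1, 103, 93 and 69 in KO2 and 35, 33 and 34 in KO3. It was above WT in KO1 and KO2 and below WT in KO3, at 1.02, 0.58 and -0.74 (SE 0.189, adjusted p = 0.00065, 0.0186 and 0.00539). The KO2 call of Psmb9 was lost in 3 of 18 alternatives, among them quantile normalization. Psme1 and Psme2, which form the activator ring induced by interferon, had the same signs as Psmb9. Psme1 stood at 1415, 1731 and 1693 in WT, 1847, 1733 and 1771 in KO1, 2466, 2260 and 2186 in KO2 and 1208, 1123 and 1211 in KO3. It rose in KO2 (0.52, adjusted p = 0.0001) and fell in KO3 (-0.44, 0.000405). Psme2 rose in KO1 and KO2 (0.27 and 0.47) and fell in KO3 (-0.51), and the KO1 call was lost without WT replicate 1. Psme3, the nuclear activator, fell in KO1 and KO2 (-0.24 and -0.62, adjusted p = 0.00478 and 2.42e-06). The inhibitor Psmf1 rose in KO2 and KO3 (0.31 and 0.22), with the KO3 call lost without WT replicate 1, and Psme4 rose in KO2 (0.23) but was at -0.0127 with the neighbours subtracted.

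Of 6 regulators of subunit expression and placement, 3 were higher and none lower in KO1, 2 higher against 2 lower in KO2, and 5 higher with none lower in KO3. Over all genes 26.9%, 29.9% and 26.8% were higher and 25.4%, 30.5% and 27.3% lower. Nfe2l2 stood at 3021, 2710 and 2748 in WT, 5739, 5523 and 5530 in KO1, 5630, 5580 and 5894 in KO2 and 8949, 8856 and 8996 in KO3. All clones were above WT and KO3 was the highest, at 0.99, 1.01 and 1.66 (SE 0.0494, adjusted p = 7.91e-09, 5.26e-09 and 6.74e-11). Nfe2l1, the factor known to raise subunit genes when proteasome activity is short, stood at 11650, 9572 and 8915 in WT, 11977, 11436 and 10429 in KO1, 7960, 8807 and 8873 in KO2 and 19459, 19182 and 18148 in KO3. It rose in KO3 (0.92, adjusted p = 2.77e-06). The call in KO2 (-0.23, 0.0461) was lost in 9 of 18 alternatives, and without WT replicate 1 Nfe2l1 was at -0.11 in KO2 (0.162) and called higher in KO1 (0.29, 0.00344). Ddi2, the protease that processes the NFE2L1 protein, had the same signs (0.35 in KO3 and -0.47 in KO2, adjusted p = 0.00575 and 0.000567), with the KO3 call lost with the neighbours subtracted (0.18, 0.172). Ngly1, which deglycosylates NFE2L1, rose in all clones (0.30, 0.74 and 0.52), and Akirin2, which brings proteasomes into the nucleus, rose in KO1 and KO3 (0.35 and 0.62). The KO1 calls of both were lost with the neighbours subtracted (0.14 and 0.31, adjusted p = 0.343 and 0.0892). Ecpas, a proteasome adaptor, did not pass the test in any clone.

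**Figure D5:**
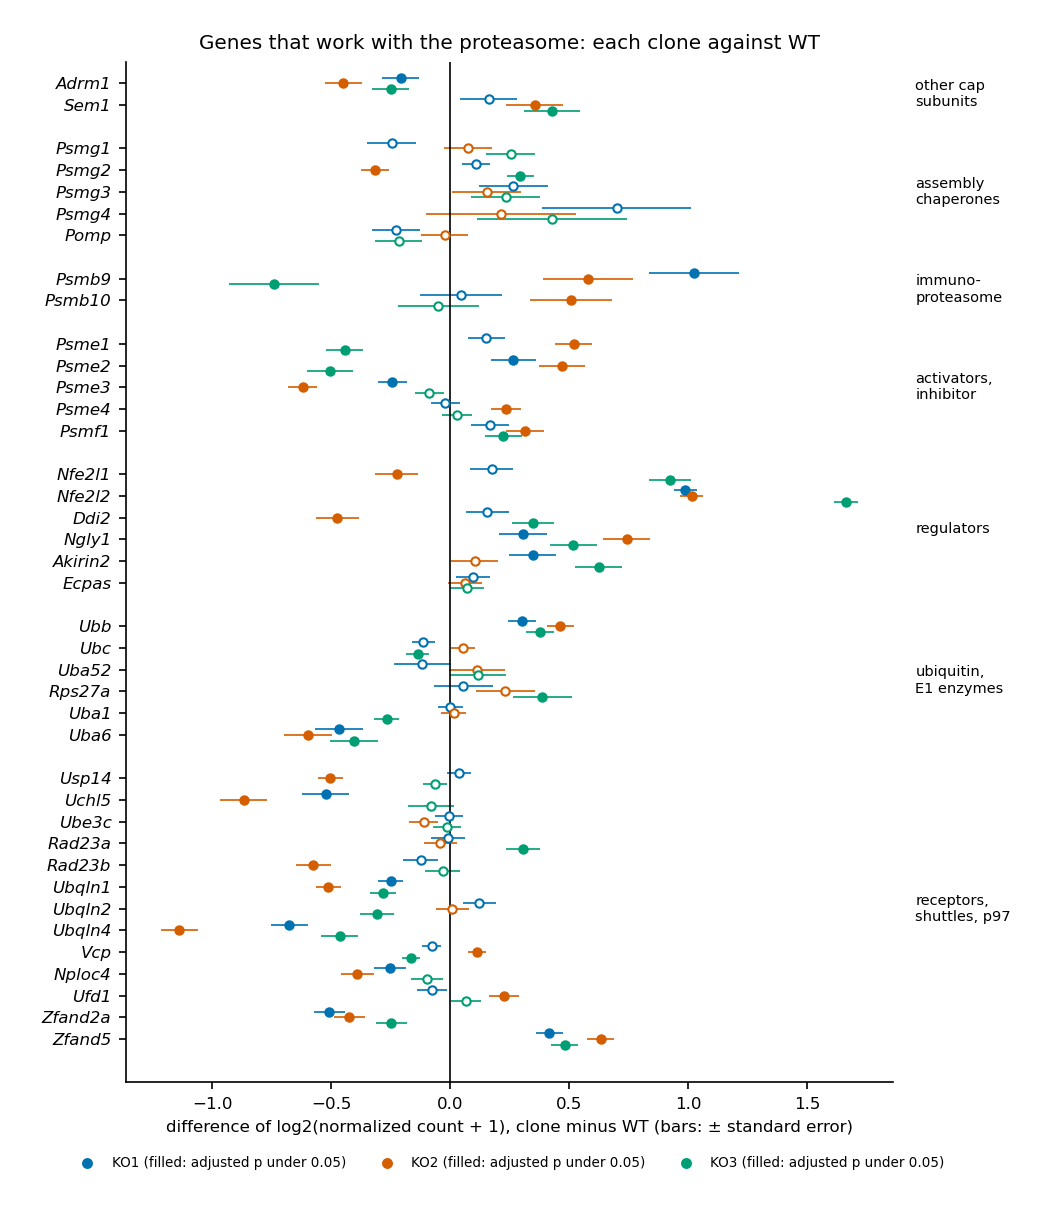
Differences of log2(normalized count + 1) between each clone and WT, with standard errors, for the tested genes that work with the proteasome, grouped by role. Filled points have an adjusted p under 0.05. Nfe2l2 lies right of 0 in all clones (0.99 to 1.66), and Ubqln4 and Uba6 lie left of 0 in all clones. Nfe2l1 has a filled point right of 0 in KO3 only, at 0.92, and an open one right of 0 in KO1.

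Of 6 genes for ubiquitin and its activating enzymes, Ubb rose in all clones (0.30, 0.46 and 0.38, adjusted p = 0.000797, 1.94e-05 and 0.000127) and Uba6 fell in all (-0.47, -0.60 and -0.40). Ubb stood at 17593, 19936 and 18849 in WT and at 22410 to 26461 over the clones, with no overlap. With the neighbours of Ubb subtracted none of its differences was called (0.0409, 0.16 and 0.11, adjusted p = 0.652, 0.0555 and 0.194). Uba1, the main activating enzyme, was called lower in KO3 (-0.27, adjusted p = 0.000872). Among 13 associated deubiquitinases, receptors, shuttles and unfolding factors, 5 were lower and 1 higher in KO1, 7 lower against 3 higher in KO2, and 5 lower against 2 higher in KO3. The share lower among all genes with a mean of at least 1000 normalized counts was 35%, 40.7% and 32.3%, to which the KO1 and KO3 counts are near. Ubqln4, a shuttle for ubiquitin-tagged proteins, stood at 2820, 2845 and 2816 in WT, 1772, 1892 and 1651 in KO1, 1131, 1345 and 1390 in KO2 and 2047, 2143 and 1962 in KO3. It fell in all clones and most in KO2 (-0.68, -1.14 and -0.46, SE 0.0777), with the KO3 call lost with the neighbours subtracted (-0.16, adjusted p = 0.111). Uchl5, the deubiquitinase bound to Adrm1, fell in KO1 and KO2 (-0.52 and -0.87, adjusted p = 0.000697 and 8.21e-06), and Usp14, the other cap-bound deubiquitinase, in KO2 (-0.50, 3.24e-06). Zfand5, a proteasome activator, rose in all clones (0.42, 0.63 and 0.48).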

How the data were processed

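Total RNA was depleted of ribosomal RNA, primed with random hexamers and sequenced in 12 libraries, per the labels' protocols. The tools named in the submitters' processing notes are cutadapt, Salmon (0.14.1) and DESeq2 (1.24.0), with the build GRCm38 (mm10). The sources used here do not give the step each tool was used for, nor the strandedness. The authors deposited a signal that is never negative, normalized read counts per gene. In each library 99.9761% to 99.9945% of values were whole multiples of 1 step within 0.02, so whole reads were recovered by size factor. The authors deposited log2 fold changes and p-values from DESeq2 for each clone against WT, per the file headers, used as an alternative. In all, 35 of 54392 rows had no match in GENCODE M21, and 0 columns were left unused.

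Genes with at least 10 normalized counts in at least 3 of 12 libraries were tested (15073), which removed Psma8 and Psmb11. The limma package (3.58.1, in R 4.3.3), with its prior variance allowed to follow the mean, was applied to log2(normalized count + 1) over all 4 groups (8 residual degrees of freedom), two-sided, with Benjamini-Hochberg adjustment over all genes tested and a threshold of 0.05. Fold changes on this scale understate those of low genes. edgeR 4.0.16 and DESeq2 1.42.0 on recovered reads, pseudocounts of 0.5 and 5, no filter, quantile normalization, a replicate block, 2-group fits, leave-one-out, subtraction of the 20 nearest tested genes on each side, added copies (at least 50% of 31-base stretches shared) and removal of a length trend (chosen after seeing WT replicate 1) were alternatives. Scripts were tested on simulated data. Members and lists were chosen with earlier results of these data known. Values in every library are given for members called in 1 direction in all clones and, for each clone and part, the 4 called members with the largest difference, for Crls1 and, from lists, up to 4 genes of smallest adjusted p or all of a list of up to 6. Psmd10, Col3a1 and the pseudogenes fall outside this rule and were chosen after their values were seen. Paaf1 is not analysed here. Start regions are from RefSeq.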

Additional observations from a re-analysis of the deposited data

Results flagged for a closer look

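Differences between clones were tested within the fit across all genes. KO2 and KO1 differed in 10 subunits, KO3 and KO1 in 14, and KO3 and KO2 in 17, of 34 tested, beside 44.4%, 43.6% and 53.1% of all genes. As shares of 34 these counts are below those over all genes. Psmc6 was called lower than WT in KO1 and KO2 and higher in KO3, and KO3 exceeded KO1 by 0.50 and KO2 by 0.69 on the log2 scale (limma, adjusted p = 1.76e-05 and 7.41e-07), without overlap of the libraries. Psmd10 was called higher than WT in KO2 and lower in KO3, a difference of -0.63 (adjusted p = 6.62e-06), again without overlap. With the neighbours subtracted that difference was -0.10 and not called (0.382), and Psmc6 in KO3 was no longer called against WT.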

How the results depend on the processing

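Over 15 counts and medians and 267 alternatives, 241 values stayed within 1.5 times the count or within 1 SD of the median. Core subunits called were 7, 6 and 5 of 14 in KO1, KO2 and KO3 with all libraries. Over all genes 52.3%, 60.4% and 54.1% were called in either direction, and as shares these core counts are below that. Core counts were 4 and 3 in KO1 and KO2 with quantile normalization, and 3 in KO3 with 2 groups only. With the length trend removed they were 12, 11 and 8. In that fit 4333, 4674 and 4337 of 15073 genes were higher and 3995, 4786 and 4286 lower. Leaving out 1 replicate gave core counts of 5 to 12, 4 to 11 and 3 to 9, the highest without WT replicate 1. The core median in KO2 was -0.0886 with quantile normalization. Leaving out 1 replicate moved the core medians from -0.39 to -0.21, -0.34 to -0.14 and -0.16 to 0.0022. The cap medians of -0.25, -0.34 and -0.12 became -0.15, -0.21 and -0.0748 with quantile normalization and -0.34, -0.44 and -0.18 with the neighbours subtracted, and -0.38 in KO2 with the length trend removed. Leaving out 1 replicate gave -0.275 to -0.249, -0.387 to -0.296 and -0.127 to -0.085. Between KO3 and KO1, 14 of 34 subunits became 22 with 2 groups only and 7 with the neighbours subtracted. Of 15073 genes, 3681 were higher and 3957 lower with 2 groups only, and 2761 and 3139 with the neighbours subtracted. The cause was not tested.

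With the neighbours subtracted, called values changed sign for Psmc1 (KO2 minus KO1 -0.16, KO3 minus KO1 -0.0326), Psmc6 (KO3 minus WT -0.0487, KO2 minus KO1 0.0667), Psmd1 (KO2 minus KO1 0.0546), Psmd10 (KO3 minus WT 0.33, KO3 minus KO1 0.17), Psme4 (KO2 minus WT -0.0127) and Ubqln1 (KO3 minus WT 0.0024). Of 98 calls of subunits over the 6 comparisons, 62 held their direction and call under it, 77 with quantile normalization, 95 with edgeR and 98 with DESeq2 and with copies added.

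Same-numbered libraries of different groups did not deviate together (r = -0.22 to 0.12 over 18 pairs, across genes). These correlations gave no sign that the numbers pair libraries, but they cannot show how the libraries were handled. A replicate block kept 92 of the 98 calls, with 7, 6 and 5 core and 12, 17 and 9 cap genes called against WT and 8, 13 and 15 between clones (KO2 and KO1, KO3 and KO1, KO3 and KO2). In that fit 3896, 4371 and 3875 of 15073 genes were higher than WT and 3625, 4491 and 3990 lower. Between clones, in the same order, 2906, 2836 and 3790 were higher and 3415, 3336 and 3917 lower.

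Depth did not limit the 34 tested subunits. The lowest value among them was 647 normalized counts, for Psmd10. Psma8, Psmb11 and Psmb8 were too low for a comparison.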
